A study of Homo sapiens with 18 samples.

Results

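YTHDF3-ADAR editing was compared between polysome RNA and total RNA of HEK293T cells, a human embryonic kidney line, over all 7042 genes of the editing table for this fusion. The 3 editing tables of the study, 1 per fusion, hold 8714 genes in all. Genes were taken as the table lists them, with no selection on their values. A value in both fractions was given for 6977 genes, and 6884 of these stood above 0 in both. In total RNA 45 genes had no value, in polysome RNA 21 had none, and 1 gene had neither. All genes listed at 0 in a fraction had 3 sites or fewer.

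The study sequenced HEK293T cells carrying an ADAR deaminase joined to 1 of the readers YTHDF1, YTHDF2 and YTHDF3. Each fusion was induced with doxycycline at 1 µg/mL for 24 h. Before harvest, every group also had 10 min of cycloheximide at 100 µg/mL, which holds ribosomes on mRNA. Total RNA and RNA of pooled polysome fractions from a sucrose gradient were sequenced in 3 libraries each, giving 6 groups and 18 libraries. None of the libraries lacked a fusion, so all groups share an induced deaminase. The labels do not say whether replicates were separate cultures, and p-values then measure only the spread between these libraries, which may be technical.

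YTHDF3 is a cytoplasmic reader of N6-methyladenosine (m6A), the most common internal mark of mRNA, and belongs with YTHDF1 and YTHDF2 to 1 family of closely related readers. YTH readers have been studied for their effects on translation and on decay of methylated transcripts. In a fusion of this kind (TRIBE), the deaminase turns adenosines near the bound position into inosines, which sequencing reads as G, so edited transcripts are read as those the reader has met. Polysomes are mRNAs that carry several ribosomes. Without a library that lacks the fusion, sites edited by other deaminases are not set apart here. Editing of a transcript in polysome RNA against total RNA therefore compares its mean edited share per site on ribosomes with that in the whole pool. The share of molecules that carry any mark is not known from it.

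Editing per site is the deposited score of a gene divided by its number of sites, in percent. It is a single pooled value per fraction, so editing differences have no replicate error, no test and no p-value, and the depth behind them is unknown. A gene was counted as past the threshold at a polysome-to-total ratio of 1.5 or more, or at the inverse of 1.5 or less. RNA abundance, in contrast, was counted in every library, as CPM, the usual count measure relative to library size, here after TMM scaling. CPM is not corrected for gene length, so abundances are compared between fractions of a gene and not between genes.

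The 6 YTHDF3-ADAR libraries held 42.7e6 to 54.9e6 counts each. Replicate 1 stood apart from replicates 2 and 3 in both fractions, by chi-square over degrees of freedom: 131 and 135 in total RNA and 118 and 122 on polysomes for pairs that include it, against 15.98 and 39.1 between replicates 2 and 3. Editing values pool the replicates and cannot be given without these libraries. In total RNA, YTHDF3 was 0.46 ± 0.12 (log2, SE) above the YTHDF1-ADAR line and 0.58 ± 0.12 above the YTHDF2-ADAR line (edgeR quasi-likelihood test, adjusted p = 0.0168 and 0.00422). ADARB1, the gene of the deaminase ADAR2, was 2.56 ± 0.14 and 5.23 ± 0.16 above them (edgeR, adjusted p = 1.14e-08 and 5.64e-12). All 7 HEK293T markers examined were detected, with summed levels of 680 to 1128 CPM in YTHDF3-ADAR total RNA. The 12 markers of blood, liver, skin, fibroblasts and muscle summed to 20.3 to 38.6 CPM there, most of it COL1A1.

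Editing per site was lower on polysomes than in total RNA for most transcripts. It was below total RNA in 4650 of 6977 genes (66.6%), above it in 2326 and equal in 1. The median over genes was 1.76% in total RNA (quartiles 1.14% to 3.08%) and 1.44% on polysomes (quartiles 0.944% to 2.56%). The median of the differences within genes was -0.298 percentage points, and the median ratio was 0.836. At least 1.5-fold lower editing on polysomes was seen in 1988 of 6884 genes (28.9%), and at least 1.5-fold higher editing in 673 (9.78%). Weighted by sites, editing was 3.94% in total RNA and 3.42% on polysomes.

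**Figure D1:**
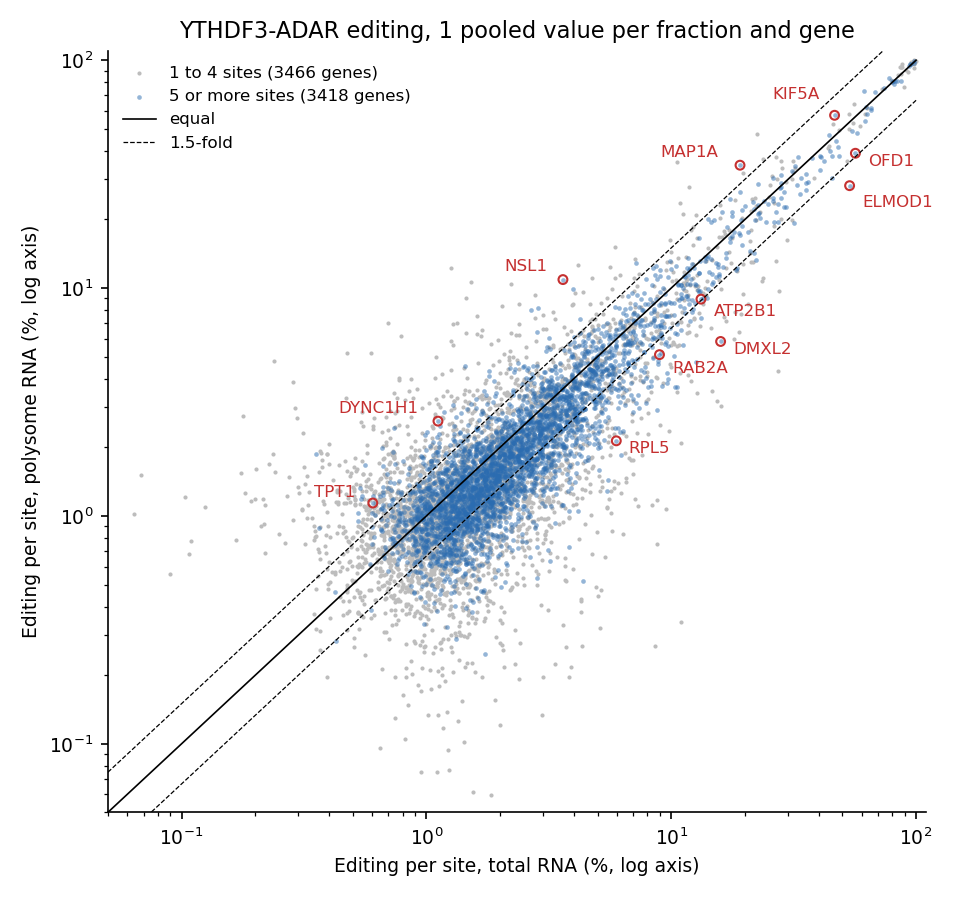
Editing per site in total RNA (x axis, percent, log scale) against polysome RNA (y axis, percent, log scale), 1 point per gene, for the 6884 genes above 0 in both fractions. Grey points are genes with 1 to 4 sites and blue points the 3418 genes with 5 or more. The solid line marks equal editing and the dashed lines 1.5-fold, and more points lie below the lower dashed line (1988 genes) than above the upper one (673 genes).

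Genes with more sites were edited more strongly per site, and fewer of them lay far from the diagonal. Across the 5 classes of site number, the median level in total RNA went from 1.36% at genes with 1 site to 2.55% at genes with 20 or more. On polysomes it went from 1.18% to 2.09%. The median ratio moved little between classes. It was 0.861 for 1 site, 0.867 for 2 to 4, 0.820 for 5 to 9, 0.820 for 10 to 19 and 0.833 for 20 or more. What changed with site number was the spread. Of single-site genes, 18.3% were at least 1.5-fold higher on polysomes and 34.8% at least 1.5-fold lower. Of genes with 20 or more sites, 2.22% were that much higher and 20.7% that much lower. Editing below total RNA, by any amount, was found in 60.2% of genes with 1 site and in 76.0% of genes with 10 to 19 sites.

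**Figure D2:**
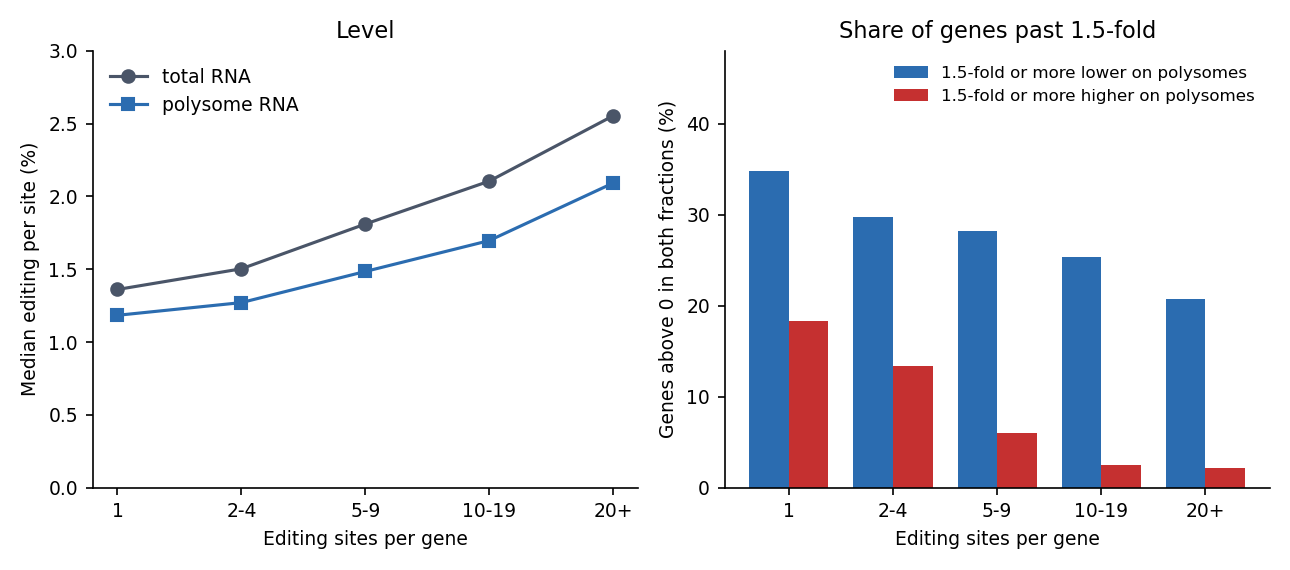
Left, median editing per site (percent) by number of editing sites per gene, in total RNA (circles) and polysome RNA (squares), with 1424, 2135, 1691, 1186 and 541 genes from left to right. Right, percent of genes at least 1.5-fold lower (blue) or higher (red) on polysomes, where the share of higher genes goes from 18.3% at 1 site to 2.22% at 20 or more.

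Genes with 5 or more sites give the steadier picture. Editing of 2489 of 3418 such genes (72.8%) was below total RNA, with a median ratio of 0.823, and 889 (26.0%) were at least 1.5-fold lower against 144 (4.21%) higher. The classes that follow take genes with a value in both fractions and any number of sites. Levels here are the mean of total and polysome editing, which both also enter the ratio. By this level, the median ratio was 0.816 for genes at 1 to 2% and 0.882 at 5 to 10%. It was 0.954 at 25 to 50% and 1.01 for the 52 genes at 50% or more. Editing cannot exceed 100%, which limits the ratio upward at high levels. No gene at 50% or more passed 1.5-fold in either direction. At 25 to 50%, 4 of 61 genes were that much higher and 4 that much lower. The cause was not tested. By abundance in total RNA, again with any number of sites, the median ratio was 0.863 for genes under 5 CPM. It was 0.818 at 5 to 20 CPM, 0.816 at 20 to 50 CPM and 0.830 at 50 to 100 CPM. At 100 to 500 CPM it was 0.889, and 0.975 for the 70 genes at 500 CPM or more. Exon length made little difference, with 0.829 in the shortest 25% of genes and 0.851 in the longest 25%.

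Among genes with 5 or more sites, the largest difference toward lower editing on polysomes, in percentage points, was that of ELMOD1 (chr11:107591091-107666779, GRCh38), which encodes a GTPase-activating protein for ARF-type GTPases. Its 7 sites were edited to 53.5% in total RNA and 28.1% on polysomes. ELMOD1 RNA itself stood at 6.78, 8.87 and 9.77 CPM in the 3 total RNA libraries and at 6.60, 7.82 and 9.13 CPM on polysomes, groups that overlap. OFD1 (chrX:13734745-13769357), a centriole protein needed for cilia, was edited to 56.5% and 39.0% at 14 sites, with 14.0 to 20.4 CPM in total RNA and 13.5 to 18.1 CPM on polysomes. Abundance passed the test in neither gene (edgeR, adjusted p = 0.689 and 0.828).

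GPM6B and GPM6A, a pair of related membrane glycoproteins best known from neurons, were also lower on polysomes. The part of brain RNA in editing values of such genes, described further below, was not tested. GPM6B was edited to 45.6% in total RNA and 30.3% on polysomes at 24 sites, and GPM6A to 31.7% and 19.4% at 26 sites. PPP3CA, the catalytic subunit of the phosphatase calcineurin, had 50 sites and stood at 35.5% and 27.0%. DMXL2, a regulator of the vesicular proton pump, was at 15.9% and 5.83%. The other genes among the 12 with the largest differences downward were RSF1, DCLK1, EDARADD, IGSF21, CA11 and SPOCK3, which stood between 12.6% and 57.1% in total RNA and between 4.73% and 47.8% on polysomes. Abundance passed the test in none of the 12 (edgeR), although GPM6B did with replicate number as a block (0.30 log2 higher on polysomes, adjusted p = 0.0300).

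MAP1A (chr15:43510958-43531620), a microtubule-associated protein, had the largest difference upward. Its 12 sites were edited to 19.1% in total RNA and 34.6% on polysomes. MAP1A RNA was less abundant on polysomes, at 17.3, 12.8 and 12.1 CPM against 26.1, 21.3 and 18.97 CPM in total RNA, and the groups do not overlap (log2 -0.66 ± 0.18 SE, edgeR, adjusted p = 0.0182). That call is lost without scaling factors and without total replicate 1, polysome replicate 2 or polysome replicate 3. KIF5A (chr12:57546026-57586633), a kinesin heavy chain of neurons, stood at 46.5% and 57.3% over 50 sites, but its exons overlap those of DCTN2, which is also in the table. Where exons of edited genes overlap, as they do for 1541 genes of the table, a site cannot be assigned to 1 of them from these files.

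NSL1 (chr1:212726153-212791782), a subunit of the kinetochore complex MIS12, was edited to 3.61% in total RNA and 10.9% on polysomes at 8 sites, a ratio of 3.02. Its RNA was more abundant on polysomes, with 78.5, 102 and 96.2 CPM against 62.2, 59.0 and 66.0 CPM (log2 0.56 ± 0.10 SE, edgeR, adjusted p = 0.00135), so both readouts of NSL1 were higher there. MAP3K10, a mixed-lineage kinase, was edited to 7.20% and 12.8% while its RNA fell by 1.04 on the log2 scale (edgeR, adjusted p = 0.00451). GOLGA2, the Golgi matrix protein GM130, stood at 17.4% and 24.7%. The other genes among the 12 with the largest differences upward were RASD2, ZNF573, DLGAP3, PHACTR1, ACTN2, FGF13 and ARHGAP33, and their differences ran from 5.46 points in ARHGAP33 to 12.1 points in RASD2. RASD2 is also on the list of striatal neuron markers described further below, where the part of brain RNA was not tested.

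Transcripts with the most sites included both directions. ATP2B1 (chr12:89588049-89709300), a plasma membrane calcium pump, held 117 sites and was edited to 13.2% in total RNA and 8.94% on polysomes. DYNC1H1 (chr14:101964573-102056443), the heavy chain of cytoplasmic dynein, held 77 sites and went the other way, with 1.12% in total RNA and 2.61% on polysomes. DYNC1H1 RNA stood at 247, 616 and 631 CPM in total RNA and at 86.4, 240 and 198 CPM on polysomes. All 3 polysome libraries lay below the lowest total RNA library, which was replicate 1 (log2 -1.51 ± 0.33 SE, edgeR, adjusted p = 0.00466).

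The spectrins, which form a network under the cell membrane, resembled dynein in direction but not in size. SPTAN1 was edited to 3.27% and 3.93% at 105 sites (its exons overlap those of DYNC2I2), and its RNA fell by 0.54 on the log2 scale (edgeR, adjusted p = 0.00558). SPTBN1 stood at 7.04% and 7.81% at 82 sites, with RNA lower by a log2 of -0.40 (edgeR, adjusted p = 0.00797). Without scaling factors both calls are lost (log2 -0.23 and -0.09), and that of SPTBN1 also without a filter on low counts (log2 -0.32). MYH10, a nonmuscle myosin heavy chain, was at 1.40% and 1.65%. Exons of MYH10, ALYREF and THOC5 overlap those of NDEL1, ANAPC11 and NIPSNAP1. ALYREF, THOC5 and CHD3 were nearly level, with ratios of 1.02, 1.00 and 1.00. MACF1 and MYCBP2 were lower on polysomes, with ratios of 0.845 and 0.833.

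Groups of genes by function were described by their counts, beside the 28.9% of all genes that were at least 1.5-fold lower, the 9.78% that were higher and the 66.6% below total RNA by any amount. Of 43 gene lists with 5 or more edited genes, 37 had a median ratio below 1 and 6 had a median of 1 or more. The list medians ran from 0.589 to 1.29. None of these counts was tested, since each gene has 1 value per fraction.

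**Figure D3:**
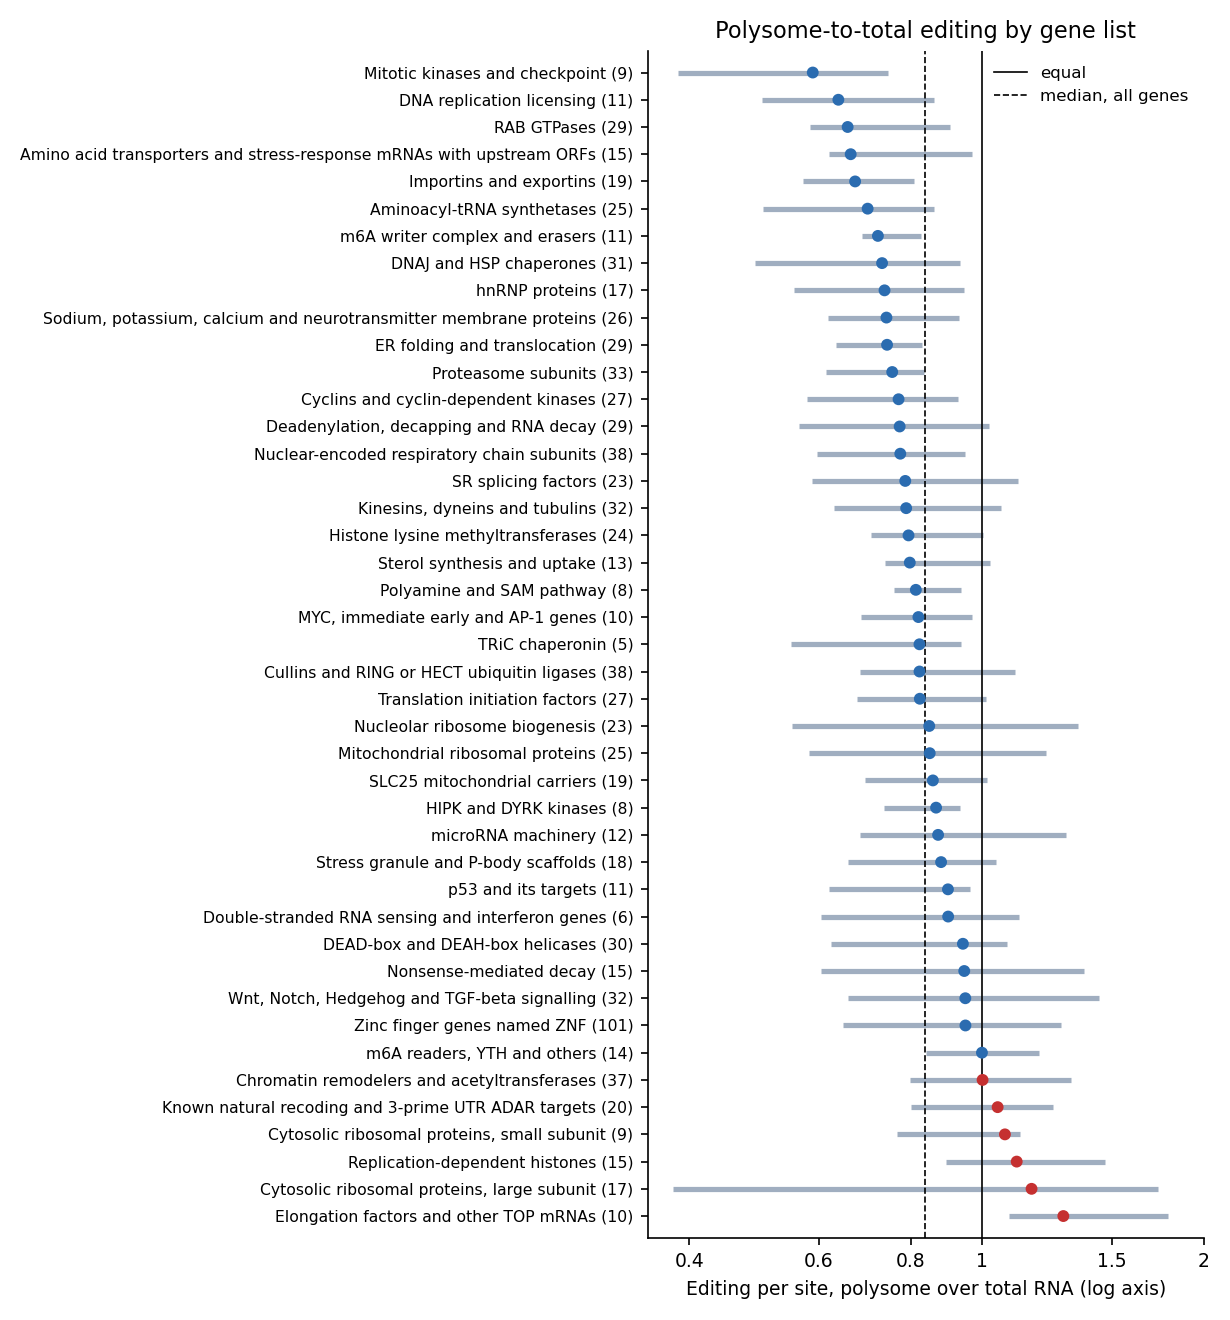
Polysome-to-total ratio of editing per site (x axis, log scale) for the 43 gene lists with 5 or more edited genes, with the number of genes that have a ratio in brackets. Points are list medians (blue below 1, red at 1 or more), bars are quartiles, the solid line is equal editing and the dashed line is the median of all genes, 0.836. Mitotic kinases lie lowest at 0.589 and elongation factors with other TOP mRNAs highest at 1.29.

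Classes of the translation machinery had different medians, and the differences between them were not tested. Aminoacyl-tRNA synthetases, which charge tRNAs, were lower on polysomes in 23 of 25 edited members, with a median ratio of 0.699 and 10 members past 1.5-fold. Initiation factors lay at the background of all genes, lower in 18 of 27 with a median ratio of 0.823, as in EIF5B at 1.64% and 0.961% (its exons overlap REV1).

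Elongation factors and other TOP mRNAs, whose 5′ terminal oligopyrimidine tract ties their translation to growth signals, were higher on polysomes in 10 of 11 edited members. Their median ratio was 1.29, with 3 of 10 members past 1.5-fold upward and 1 downward. Edited members had a median of 3 sites, and 13.3% of all genes with 2 to 4 sites were that much higher. For the 4 members with 5 or more sites the median ratio was 1.21, with 1 past 1.5-fold upward. TPT1 (chr13:45333471-45341284), the translationally controlled tumour protein, was edited to 0.604% in total RNA and 1.14% on polysomes at 7 sites. Its RNA stood at 415, 605 and 593 CPM in total RNA and at 296, 190 and 224 CPM on polysomes, with no overlap (log2 -1.18 ± 0.16 SE, edgeR, adjusted p = 0.000146). PABPC1, the cytoplasmic poly(A)-binding protein, was at 0.611% and 0.810%, and its RNA fell by 0.77 (log2, edgeR, adjusted p = 0.00505), a call lost without scaling factors (log2 -0.45).

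Cytosolic ribosomal proteins had few edited members and no common direction. Of 47 tested genes of the large subunit, 17 were edited, and 6 were at least 1.5-fold higher and 5 at least 1.5-fold lower (median ratio 1.17). Of 32 of the small subunit, 9 were edited, 2 higher and 1 lower (median ratio 1.07). Edited members of each subunit had a median of 2 sites. Of all genes with 2 to 4 sites, 13.3% were at least 1.5-fold higher and 29.8% at least 1.5-fold lower. RPL5 carried most editing among those that were lower, with 5.97% and 2.14% at 13 sites, but its exons overlap those of DIPK1A. RPL14, with 22 sites, stood at 5.30% and 6.19%. The RNA of most members was lower on polysomes, in 36 of 47 and 25 of 32 tested genes and higher in none (edgeR), against 12.1% lower and 8.01% higher among all genes tested. Among the members named here, RPS2 had the largest decrease (log2 -1.76 ± 0.20 SE, adjusted p = 2.80e-05), at 2.67% and 2.02% editing over 2 sites. Ribosomal protein genes share sequence with many pseudogenes, so their sites and counts are uncertain.

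Several lists of protein folding, turnover and trafficking had more members below total RNA than the 66.6% of all genes. Of 33 edited proteasome subunits, 31 were below total RNA, 11 at least 1.5-fold and none that much higher (median ratio 0.755). PSMD12 was at 2.62% and 1.51%, while PSMD1, the subunit with most sites (37), was an exception at 1.33% and 1.45%. Of 29 edited genes of endoplasmic reticulum folding and translocation, 27 were below total RNA, among them HSP90B1 at 1.69% and 1.08% (its exons overlap C12orf73), though HSPA5 (BiP) stood at 2.32% and 2.54%. RAB GTPases, which direct vesicle traffic, had 15 of 29 members at least 1.5-fold lower and 1 higher (median ratio 0.657). RAB2A was edited to 8.96% and 5.10% at 28 sites. Importins and exportins had 9 of 19 lower and none higher (median ratio 0.672), with KPNA4 at 1.81% and 1.08%. DNAJ and HSP chaperones had 11 of 31 lower and none higher (0.731). Cullins and RING or HECT ubiquitin ligases lay at the background, with 25 of 38 below total RNA (65.8%, median ratio 0.822).

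Edited cell cycle genes were mostly below total RNA. Only 10 of 34 tested mitotic kinase and checkpoint genes were edited, 9 of them below total RNA (median ratio 0.589), as in CDC20 at 0.958% and 0.492%. Of 11 edited replication licensing genes, 10 were below total RNA (median ratio 0.638). MCM8 was the exception, at 3.10% and 5.50%. Cyclins and their kinases, of which 28 of 50 tested were edited, were lower in 22 of 28, as in CDK17 at 9.66% and 5.57% over 39 sites. RRM2B, a p53-induced ribonucleotide reductase subunit, was edited to 3.84% and 0.994% at 3 sites, and its RNA was 1.17 ± 0.25 (log2, SE) higher on polysomes (edgeR, adjusted p = 0.00432).

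Genes of RNA regulation were mixed. The m6A writer complex and the erasers were below total RNA in 10 of 11 edited members (median ratio 0.722), with METTL3, the catalytic methyltransferase, at 1.24% and 0.927% (its exons overlap TOX4) and ZC3H13 at 2.55% and 1.28%. The m6A readers were level over all 14 edited members, 7 below and 7 above (median ratio 0.999). Of the 9 with 5 or more sites, 6 were below (median ratio 0.903). HNRNPC, a reader of m6A-dependent structure, stood at 11.8% and 12.03% over 22 sites. YTHDF3 itself was edited to 1.28% and 1.05% at 10 sites, where counts of the fusion and the endogenous gene cannot be told apart, and YTHDF2 to 0.945% and 0.270% at 1 site. YTHDF1 is not in the table. Of RNA decay factors 20 of 29 were below total RNA, among them CNOT2 (2.46% and 1.26%), a subunit of the main deadenylase, and PUM2 (1.84% and 1.15%).

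Chromatin remodelers and acetyltransferases were balanced, with 17 of 37 below total RNA and 8 past 1.5-fold each way (median ratio 1.00). ARID1A, a SWI/SNF subunit, was at 1.32% and 1.61% over 45 sites, with RNA lower on polysomes (log2 -0.52 ± 0.10 SE, edgeR, adjusted p = 0.00303), a call lost without scaling factors (log2 -0.22). Replication-dependent histones were below total RNA in 5 of 15 edited members (median ratio 1.11), 4 past 1.5-fold upward and 1 downward, while their RNA was higher on polysomes in 33 of 57 tested genes and lower in none (edgeR), against 8.01% and 12.1% of all genes tested. Their near-identical copies make single values uncertain. Edited histone genes had a median of 1 site, and of all genes with 1 site 18.3% were at least 1.5-fold higher and 34.8% at least 1.5-fold lower. Zinc finger genes named ZNF were seldom edited, 107 of 473 tested, and nearly balanced (57 of 106 below total RNA, median ratio 0.949). None of 13 mitochondrial-genome mRNAs and none of 25 snoRNA host genes named SNHG is in the table, where all 7038 genes matched to a count row are annotated as protein coding. Over all genes, 44.5% of tested protein-coding genes had an editing site.

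Transcripts more abundant on polysomes had, by their median, lower editing there than the other edited transcripts. Abundance was read from counts, not from editing. Of 6901 edited genes tested, 1096 (15.9%) were more abundant on polysomes and 562 (8.14%) less (edgeR quasi-likelihood test, adjusted p under 0.05), against 12.4% and 7.99% of tested protein-coding genes and 8.01% and 12.1% of all 26804 genes tested. Among genes with 5 or more sites, those more abundant on polysomes had a median editing ratio of 0.643, and 560 of 625 (89.6%) were edited below total RNA. Those not called had 0.840, with 73.0% below. Those less abundant had 1.11, with 99 of 288 (34.4%) below. Split into 10 bins of 339 or 340 genes by abundance change, the median ratio went from 1.08 in the lowest bin to 0.591 in the highest and stepped down from each bin to the next. Both readouts come from the same 6 libraries, so they do not vary independently of each other.

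How many edited genes pass the abundance test depended on the fit. With replicate number as a block it was 1704 higher and 1150 lower, without scaling factors 3159 and 145, and in the 6 YTHDF3-ADAR libraries alone 0 and 21 (1277 at an unadjusted p under 0.05). Leaving out polysome replicate 2 gave 472 and 343, total replicate 1 1843 and 611, total replicate 2 537 and 332, total replicate 3 713 and 412, polysome replicate 1 1255 and 923, and both libraries numbered 1 2022 and 856. Across these, the median editing ratio of genes with 5 or more sites stayed below 1 in those called higher and above 1 in those called lower, wherever any gene was called. Omitting the scaling factors moved the median change of all tested genes from -0.05 to 0.25 on the log2 scale.

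**Figure D4:**
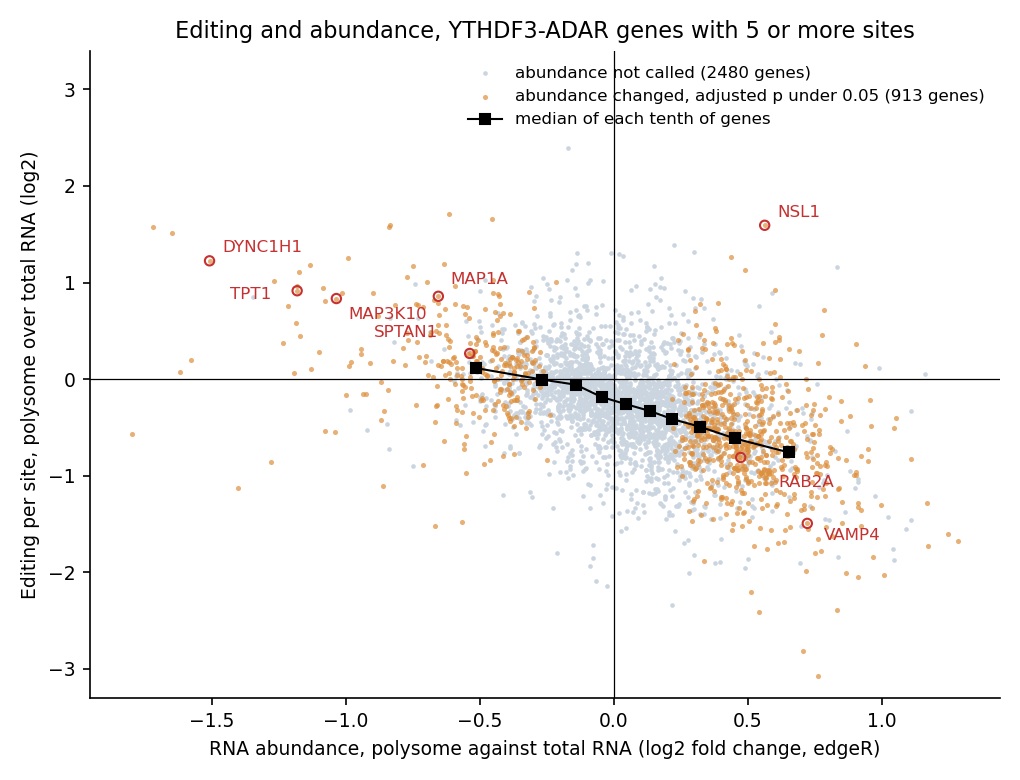
Change of RNA abundance on polysomes against total RNA (x axis, log2 fold change) against the log2 polysome-to-total ratio of editing per site (y axis) for genes with 5 or more sites. Orange points passed the abundance test at an adjusted p under 0.05 and grey points did not. Black squares are medians of 10 bins of genes, whose ratio goes from 1.08 at the left to 0.591 at the right.

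Single transcripts show the same pairing of readouts. VAMP4, a vesicle fusion protein of the trans-Golgi, was edited to 10.4% in total RNA and 3.69% on polysomes at 7 sites. Its RNA stood at 9.82, 9.40 and 11.6 CPM in total RNA and at 9.66, 20.3 and 20.9 CPM on polysomes, where polysome replicate 1 lies within the total RNA range (log2 0.72 ± 0.21 SE, edgeR, adjusted p = 0.0229). The call is lost without polysome replicate 2, polysome replicate 3 or total replicate 2. RAB2A stood at 31.0, 30.8 and 30.1 CPM in total RNA and at 42.9, 46.1 and 38.6 CPM on polysomes, with no overlap (log2 0.47 ± 0.09 SE, edgeR, adjusted p = 0.00233). NSL1, described above, goes against the order, since both its editing and its abundance were higher on polysomes. Of the genes named here with an abundance call, only RPS2 kept it in the 6 YTHDF3-ADAR libraries alone.

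**Figure D5:**
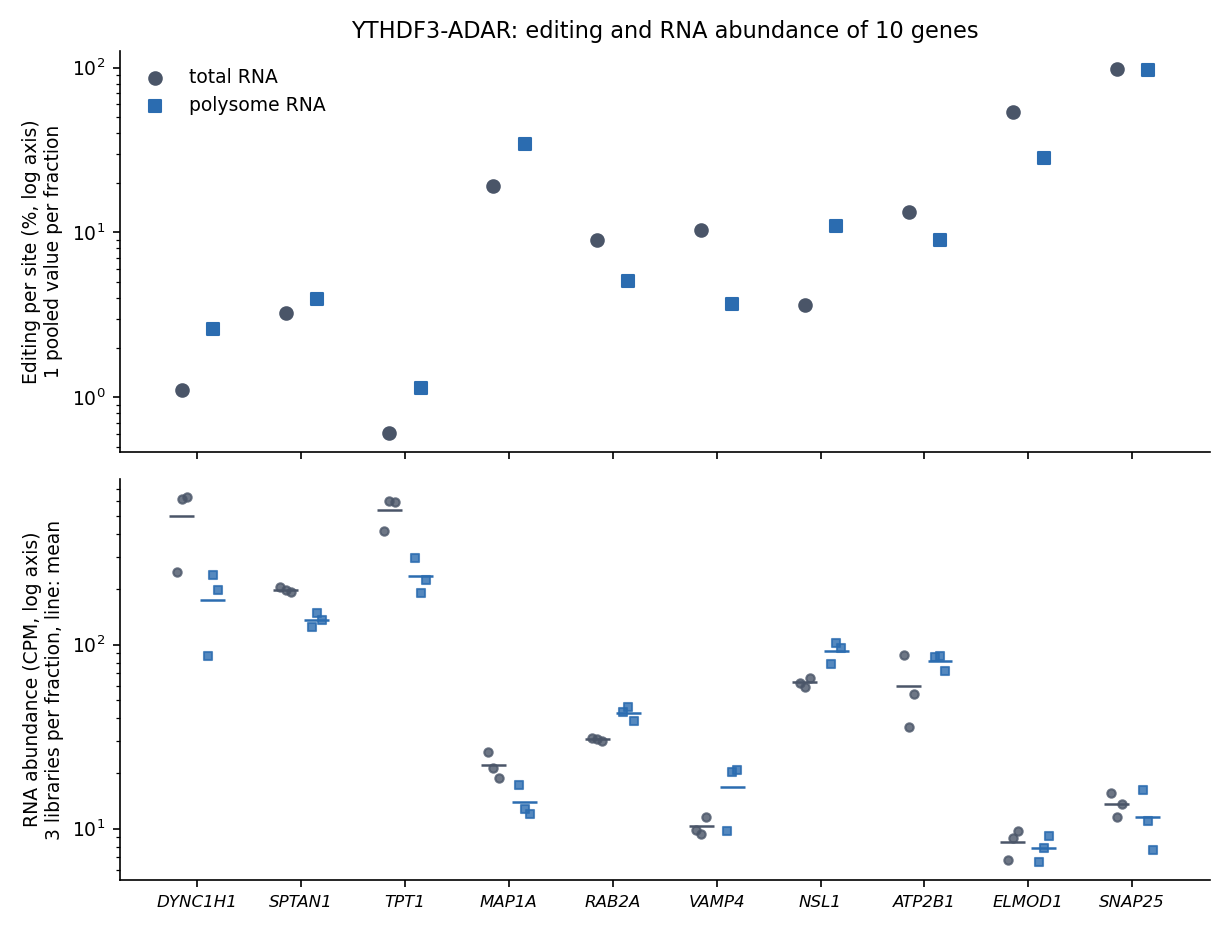
Top, editing per site (percent, log scale) of 10 genes in total RNA (circles) and polysome RNA (squares), 1 pooled value each. Bottom, their abundance (CPM, log scale) in the 3 libraries of each fraction, with lines at the mean, where DYNC1H1, SPTAN1, TPT1 and MAP1A lie lower on polysomes, and RAB2A and NSL1 higher, with no overlap of the libraries.

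In total RNA, 113 genes reached 25% editing per site or more, and 69 of them stood within 5 points of that value on polysomes, with 61 lower and 51 higher. SNAP25 (chr20:10218830-10307418), a synaptic vesicle fusion protein, was edited to 98.0% and 96.8% at 10 sites, with 15.7, 11.6 and 13.6 CPM in total RNA and 16.3, 11.01 and 7.66 CPM on polysomes. SST (somatostatin) stood at 98.2% and 98.7%, ADCY5, an adenylyl cyclase, at 93.8% and 94.1%, and PDE1B, a phosphodiesterase, at 82.0% and 81.0% (its exons overlap PPP1R1A). ADARB1 was edited to 95.2% and 96.1% at 8 sites, where reads of the fusion and of the endogenous gene cannot be told apart. FAM180B was listed at 94.9% and 96.1% over 6 sites although no YTHDF3-ADAR library had more than 0.0382 CPM of it.

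Of the 113 genes, 22 belong to marker lists of brain cells drawn up after these values were seen. Of 28 neuron markers 16 were edited, with medians of 43.6% in total RNA and 37.6% on polysomes, and of 13 striatal neuron markers 8, with 86.3% and 85.7%. Of 10 astrocyte markers 6 were edited, at 35.2% and 35.6%, and 1 each of 7 oligodendrocyte and 5 microglia markers. In this order, 61.5%, 61.5%, 66.7%, 14.3% and 33.3% of the members tested for abundance were edited. Over all tested protein-coding genes the share was 44.5%. The striatal markers summed to 85.3 to 89.9 CPM in YTHDF3-ADAR total RNA, against 29.8 to 72.2 in YTHDF1-ADAR and 33.0 to 64.5 in YTHDF2-ADAR total RNA. The 25 neuron markers that are not also HEK293T markers summed to 178 to 210 CPM there, against 59.9 to 147 and 46.6 to 118, with no overlap. Their mean was higher than in YTHDF1-ADAR total RNA for 23 of 25 and higher than in YTHDF2-ADAR total RNA for 22. Of the 23 tested, 3 and 5 passed the test upward and none downward (edgeR, adjusted p under 0.05), against 11.6% and 15.2% of all genes that passed upward. In YTHDF3-ADAR total RNA 19 of the 25 had a mean of 1 CPM or more, and 1, VIP, was at 0 in every library. With NEFM, NEFL and INA, which are HEK293T markers too and carry most of the sum, all 28 summed to 456 to 799 CPM, against 1297 to 1544 and 530 to 635. The part of brain RNA in these editing values was not tested. In bulk RNA, a few cells with much of a transcript and many cells with little of it cannot be told apart. Levels also differed between libraries of the other lines. SNAP25 stood at 10.4, 11.6 and 0.145 CPM in YTHDF1-ADAR total RNA and at 8.24, 6.25 and 0.238 CPM on polysomes. In YTHDF2-ADAR cells it stood at 9.43, 0.0768 and 6.67 CPM, and at 7.76, 0.132 and 9.53 CPM. SYT1 varied less, at 7.51, 9.84 and 4.36 CPM in YTHDF1-ADAR total RNA. Why the libraries differed was not tested.

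The other fusions edited many of the same genes. Of the 7042 genes, 5323 are also in the YTHDF1-ADAR table (75.6% of this table and 77.6% of that one) and 4228 in the YTHDF2-ADAR table (60.04% and 93.0%). The 1308 genes found only with YTHDF3-ADAR had a median of 2 sites, against 8 for the 3817 genes in all 3 tables. Over the 3702 genes with values in all of them, editing was lower on polysomes in 68.7% of genes for YTHDF3-ADAR (median ratio 0.844), 71.3% for YTHDF1-ADAR (0.774) and 58.2% for YTHDF2-ADAR (0.902). It was lower with all 3 fusions in 1297 genes and higher with all 3 in 297. YTHDF3-ADAR alone was lower in 268 genes and alone higher in 360. Its level in total RNA was the highest of the fusions in 2005 genes and the lowest in 522, while ADARB1 RNA was also highest in that line. Site sets may differ between the tables, and these differences were not tested.

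Several genes named above kept their direction with each fusion. DYNC1H1 was at 1.55% and 3.09% in total and polysome RNA with YTHDF1-ADAR and at 0.853% and 3.15% with YTHDF2-ADAR. KIF5A was at 53.9% and 66.0%, and at 60.1% and 74.5%. ELMOD1 was at 50.6% and 36.1%, and at 31.1% and 23.0%. OFD1 did not, with 37.5% and 23.2% for YTHDF1-ADAR but 16.1% and 21.8% for YTHDF2-ADAR. VAMP4 was lower on polysomes with YTHDF3-ADAR alone, since the others gave 4.33% and 4.93%, and 6.396% and 7.17%. BMPR2, a receptor for bone morphogenetic proteins, stood at 13.5% and 9.03% with YTHDF3-ADAR, 3.82% and 3.57% with YTHDF1-ADAR and 1.08% and 7.40% with YTHDF2-ADAR.

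At the opposite end, GPC3, a membrane heparan sulfate proteoglycan, was nearly level with YTHDF3-ADAR (31.3% and 32.7%) and lower on polysomes with the others (16.6% and 10.8%, 25.7% and 10.3%). ALDOC, the brain aldolase, was at 44.4% and 40.1% with YTHDF3-ADAR, against 66.0% and 46.2% and 52.1% and 32.0%. GOLGA2 was higher on polysomes with YTHDF3-ADAR and YTHDF1-ADAR (33.0% and 37.7%), but stood at 15.3% and 0.906% with YTHDF2-ADAR. The abundance change on polysomes differed between YTHDF3-ADAR and YTHDF1-ADAR cells in 0 genes, and between YTHDF3-ADAR and YTHDF2-ADAR cells in 0 genes (edgeR, interaction contrast, adjusted p under 0.05). At an unadjusted p under 0.05 there were 877 and 801 of the 26804 genes tested, and DESeq2 called 1 and 9 at an adjusted p under 0.05.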

How the data were processed

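Total and polysome RNA of HEK293T cells expressing YTHDF1-, YTHDF2- or YTHDF3-ADAR was sequenced after ribosomal RNA depletion, 3 libraries per group. The submitters' processing notes name STAR 2.7.7 and featureCounts 2.0.1, list DESeq2 with no version, and give GRCh38 as the build. Strand setting, annotation release, site calling and replicate pooling: not given in the sources used here.

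Deposited gene counts are raw whole numbers. The deposited editing score is summed over the sites of a gene, and its share of the site number was settled from the values: the deposited natural log change equals the log odds ratio of that share, with a largest difference of 2.0e-08 over 6883 genes. The authors' deposited natural log changes and p-values were not used otherwise. Of the authors' deposited DESeq2 table, only gene symbols and biotypes were taken, and its log2 fold changes and its mean signal of normalised counts were not used.

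Editing per site is 100 times score over sites, computed here. Abundance was tested with edgeR 4.0.16 (R 4.3.3, limma 3.58.1) by its quasi-likelihood test on all 18 libraries, with 6 group means, TMM scaling, filterByExpr at a minimum count of 10 and Benjamini-Hochberg adjustment at 0.05. DESeq2 1.42.0, other scaling, no filter, a replicate block and left-out libraries were alternatives. Library totals were 42.7e6 to 67.5e6. One row of the count table that names no human gene, with at most 8 counts in a library, was left out.

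Members and gene lists were chosen with earlier results of these data known. Genes named by rule were the 12 with the largest editing difference each way and the 10 highest in total RNA (5 or more sites), the 10 with most sites, up to 4 per list with most sites, the 6 farthest each way from the other fusions, and the fusion genes. COL1A1, VIP, NEFM, NEFL and INA of the marker lists were named after their values were seen. Sample titles give a replicate number but do not say that same-numbered total and polysome libraries are pairs. Deviations of same-numbered YTHDF3-ADAR libraries from their group means correlated at 0.67, 0.36 and 0.42. Total replicate 3 correlated more with polysome replicate 2 (0.51), and total replicate 2 slightly more with polysome replicate 3 (0.363 against 0.358). Only replicate 1 was matched best by its own number, so pairing of the others is not shown.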

Additional observations from a re-analysis of the deposited data

Results flagged for a closer look

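The count table holds 1 row that names no human gene. YTHDF3-ADAR total replicate 1 had 8 counts on it, above the 3 counts used as a floor, and the other libraries had 0 to 7. This row is outside the comparisons, and the study has no control library without a fusion to set it against.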

How the results depend on the processing

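Median editing was lower on polysomes under every alternative run. With at least 5 sites, the median difference was -0.370 points, the ratio 0.823, and 144 genes were higher and 889 lower. With at least 10 sites these were -0.414, 0.824, 42 and 412. The median difference was -0.302 points for genes at 5 CPM or more and -0.269 (ratio 0.855) for genes whose abundance did not pass the test. The mean over genes was -0.395 points and the site-weighted value -0.518. Counting genes 25% or more above total RNA, or lower by the inverse of that, gave 1167 higher and 3134 lower, a ratio threshold of 2 gave 330 and 915, and a difference of 5 points gave 66 and 113. More members lower than higher were found in 37 gene lists, and in 4 by the 5-point rule. With 5 or more sites in all 3 tables, 45.1% of genes were lower with every fusion, against 35.0%.

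For abundance, the counts of edited genes higher and lower were 0 and 21 in the YTHDF3-ADAR libraries alone, 3159 and 145 without scaling factors, and 2022 and 856 without both libraries numbered 1, chosen after seeing the data. Without a filter 298 were lower. Leaving out 1 library gave 472 to 1843 higher and 332 to 923 lower. The cause was not tested. Pairing libraries by number (the replicate block), 1704 were higher and 1150 lower, and the median editing ratios of those with 5 or more sites were 0.675 and 1.05. The same 2 medians, also computed after seeing the data, were 0.652 and 1.12 with DESeq2, 0.651 and 1.13 with its size factors, 0.648 and 1.18 without a filter, 0.715 and 1.30 without scaling factors, and 0.666 and 1.07 without the libraries numbered 1. They were 0.621 to 0.670 and 1.06 to 1.14 with 1 library left out. In the YTHDF3-ADAR libraries alone, the genes called lower had 1.86. Editing values pool the replicates, so no paired analysis and no left-out library was possible for them, and their unknown depth limits genes with few sites most.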
